A study of Micropterus salmoides with 24 samples.

Results

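Trunk kidney RNA of male largemouth bass kept with Rodeo was compared with that of fish kept in clean water. The 4 libraries titled as trunk kidney with Rodeo and the 4 titled as trunk kidney control were chosen by their titles, 8 of the 24 libraries of the series. All fish were adult males from one hatchery, kept for 21 days at 4 fish to a tank of 38 L. Each treatment had 4 tanks. Rodeo is a commercial glyphosate product for use on water weeds, and it was dosed to give 10 mg/L of glyphosate. Controls received neither Rodeo nor glyphosate. The 4 trunk kidney libraries of fish kept with glyphosate alone, also at 10 mg/L, are not part of the contrast. They share its fit, so they help to set the contigs tested, the scaling, the mean levels and the spread between libraries. They also help to choose contigs typical of head or trunk kidney and contigs with a high and a low set of libraries. Elsewhere their values are given beside the others. Nothing in the labels says which tank a fish came from, so the spread behind each p-value is that between these libraries and may not be that between tanks.

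Glyphosate blocks an enzyme that plants and many microbes use to make aromatic amino acids and that fish lack. In bony fish most nephrons lie in the trunk kidney, where they filter blood and recover or secrete ions and small molecules. Blood-forming and immune tissue lies between the tubules and is the main tissue of the head kidney, next to steroid-producing interrenal cells. In such bulk tissue RNA, fewer cells of a type and less RNA per cell cannot be told apart.

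Read counts were given per contig, a transcript sequence assembled from reads, and 0 identifiers could be paired with a gene name. Contigs are therefore described by level and change, and only 2 higher and 2 lower ones are named. The Rodeo libraries held 22259411 to 27386031 counts, and the controls 22312688 to 29858387. Of the 78435 contigs in the series, 74555 had a count in at least 1 of the 8 libraries and 43514 had one in all 8. The edgeR fit tested 43072. The tissue label was checked with contigs whose level differed at least 8-fold between head and trunk, chosen in glyphosate libraries only. On a scale common to all 24 libraries, the 4210 trunk-enriched contigs had a mean log2 CPM (counts per 1000000 counts) of 4.11 to 4.52 in trunk Rodeo libraries and 4.02 to 4.50 in trunk controls, against -1.12 to -0.91 in head Rodeo libraries and -1.30 to -0.98 in head controls. All 8 libraries were thus on the trunk side.

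One mismatch bears on every comparison by treatment. In 55 contigs some libraries of each tissue stood high and the rest low, more than 8-fold apart, and the pattern over these contigs was compared between head and trunk libraries. For 6 of the 8 libraries one head library was alike at 98.2% to 100% of these contigs, and the next best at 70.9% to 87.3%. Trunk Rodeo 1, 2 and 4 matched head control 3, head control 4 and head glyphosate 1. Trunk control 1, 2 and 3 matched head glyphosate 3, head glyphosate 4 and head Rodeo 1. In 0 of these 6 pairs did both libraries carry the same treatment label. Trunk Rodeo 3 and trunk control 4 had no such partner, with 76.4% and 67.3% as their best. Trunk glyphosate 1 and 4, which enter the fit, matched head Rodeo 3 and head control 2, again under another label. If such a pair comes from one fish, at least one of its labels is wrong. Which one cannot be told from these data, and whether different fish of like genotype could give such a match was not tested. Groups below are the libraries as labelled.

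As wholes, the libraries did not sort by treatment. Over the tested contigs, the Pearson correlation of log2 CPM had a median of 0.908 between Rodeo libraries, 0.910 between controls and 0.907 between a Rodeo library and a control. These are likenesses across contigs, which are not replicates. The library most like Rodeo 1 was control 4 (r = 0.937), and the library most like Rodeo 4 was control 1 (r = 0.922). Rodeo 2 and Rodeo 3 were each most like Rodeo 1, and control 2 was most like control 3. In 3 of the 8 libraries the most alike library thus came from the same group. The first component of the 8 libraries carried 23.7% of the variance. On it Rodeo libraries ran from -56.2 to 159.6, and controls from -82.3 to 64.3. The second carried 21.8%, with Rodeo at -105.7 to -4.9 and controls at -54.1 to 159.5. Rodeo 4 lay apart on the first component and control 2 on the second, and the groups overlapped on both.

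**Figure D1:**
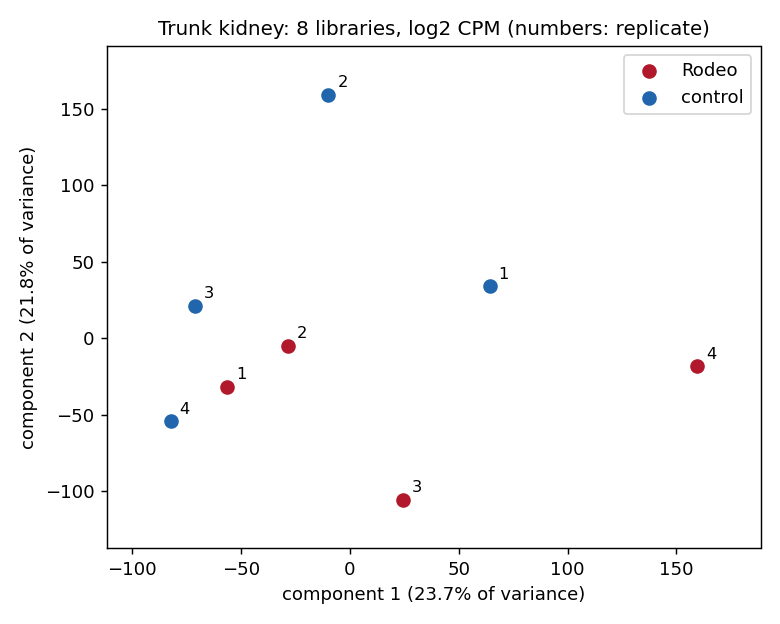
First and second principal components of log2 CPM over 43072 contigs in the 8 trunk kidney libraries, with Rodeo in red, control in blue and the replicate number beside each point. The groups overlap on both axes, Rodeo 4 stands at 159.6 on the first component and control 2 at 159.5 on the second.

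Libraries of one group differed widely among themselves. The median SD of log2 CPM over contigs was 0.508 in Rodeo libraries and 0.553 in controls. After thinning each library to 9000000 counts, Rodeo libraries showed 58111, 57389, 55086 and 51451 contigs, and controls 53187, 55370, 60503 and 59966. The means were 55509 ± 2997 with Rodeo and 57256 ± 3559 in controls (SD, n = 4 each; exact two-sided permutation p = 0.486). The 100 most abundant contigs of a library took 22.9 ± 3.31% of its counts with Rodeo and 21.7 ± 4.61% in controls (SD, n = 4 each; exact two-sided permutation p = 0.714). Neither measure set the groups apart, and control 3 had both the most contigs and the smallest share in few contigs, 16.1%.

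The level of contigs typical of head kidney overlapped between the groups. On the scale of the 12 trunk libraries, the 1169 tested contigs at least 8 times higher in head than in trunk glyphosate libraries had mean log2 CPM of 0.61, 0.71, 0.45 and 0.42 in Rodeo libraries 1 to 4. In control libraries 1 to 4 they stood at 0.18, 0.81, 0.62 and 0.99. The difference of means was -0.10 (exact two-sided permutation p = 0.571, n = 4 each). Controls held both the lowest and the highest value. For the 4205 tested trunk-enriched contigs the mean levels on that scale, which lies lower than the common one, were 4.09 ± 0.18 with Rodeo and 4.00 ± 0.20 in controls (SD, n = 4 each; exact two-sided permutation p = 0.486). With the share of counts on contigs of the LMB_Assem kind, at 75.2 ± 0.52% with Rodeo and 75.4 ± 0.94% in controls (exact two-sided permutation p = 0.743, n = 4 each), these made 5 measures. The smallest p that 70 splits allow is 0.0286, and after Benjamini-Hochberg adjustment all 5 stood at 0.743.

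Against this background, few contigs passed the threshold of the edgeR fit. With edgeR 8 of 43072 contigs passed an adjusted p of 0.05, which is 0.0186% of those tested. Of these, 6 fell with Rodeo (0.0139% of those tested) and 2 rose (0.00464%). The eighth had an adjusted p of 0.0197 and the ninth 0.0779, with no contig between them. The 8 called contigs changed by between 3.60-fold lower and 6.59-fold lower, or by 4.66-fold and 5.06-fold higher. The highest level among them, in any of the 8 libraries, was 133.5 CPM.

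**Figure D2:**
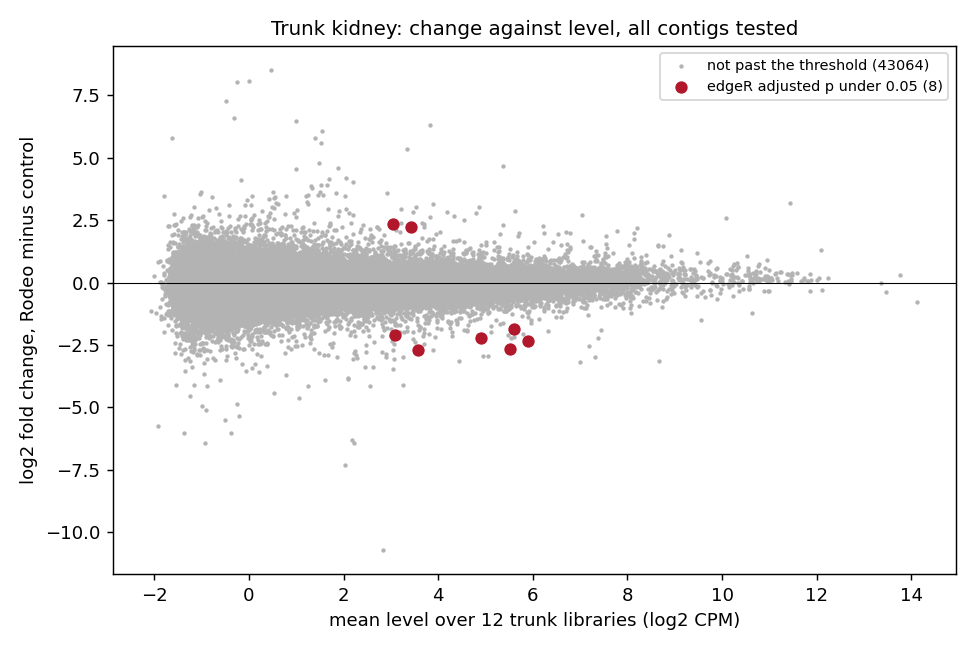
Log2 fold change of Rodeo minus control against the mean log2 CPM over 12 trunk libraries for 43072 contigs, with the 8 that passed an edgeR adjusted p of 0.05 in red. The called contigs lie between -2.72 and 2.34 at middle levels, and contigs with larger estimates lie mostly at low levels.

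The contig with the smallest p was LMB_Assem.6831.C1. It stood at 10.8, 15.8, 11.3 and 16.2 CPM in Rodeo libraries 1 to 4, and at 120.3, 63.3, 67.1 and 94.7 CPM in controls 1 to 4. The lowest control thus lay 3.90 times above the highest Rodeo library. The counts behind these levels were 262 to 525 with Rodeo and 1935 to 3051 in controls, so counting error was small beside the spread. On the log2 scale the contig fell by 2.68 with an SE of 0.27 and a 95% interval of -3.25 to -2.10 (edgeR adjusted p = 0.00434).

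LMB_Assem.6761.C1 gave a second such case. It stood at 22, 24.8, 14.2 and 20.1 CPM in Rodeo libraries and at 133.5, 80.4, 87.3 and 104.6 CPM in controls, 3.25 times apart at the nearest libraries. On the log2 scale it fell by 2.32, with an SE of 0.262 (edgeR adjusted p = 0.00729). The identifier number 6761 is carried by 2 contigs, and the other one, at a lower level, moved the same way. That one averaged 0.742 CPM with Rodeo against 5.40 CPM in controls, a log2 difference of -2.83 (SE 0.521) that did not pass the threshold (edgeR adjusted p = 0.216). Over the 8 libraries the levels of these 2 contigs had r = 0.940, a description over libraries that the contig's own change sorts into groups.

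Both contigs that rose did so from levels of a few CPM. LMB_Assem.10888.C1 stood at 12.4, 13.4, 17.5 and 18.4 CPM in Rodeo libraries and at 3.60, 2.39, 2.91 and 3.29 CPM in controls. The counts were 341 to 448 with Rodeo and 73 to 106 in controls. On the log2 scale it rose by 2.34, with a 95% interval of 1.71 to 2.97 and an SE of 0.292 (edgeR adjusted p = 0.0118). LMB_Assem.3657.C1 stood at 19, 18.9, 16.4 and 24.6 CPM with Rodeo, against 3.56, 4.09, 5.51 and 3.76 CPM in controls. It rose by 2.22 (SE 0.278, 95% interval 1.63 to 2.82, edgeR adjusted p = 0.0118). In neither contig did the groups overlap, and the nearest libraries were 3.45 and 2.98 times apart. Both numbers, 10888 and 3657, are carried by 1 contig each.

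The other 4 called contigs were all lower with Rodeo. The contig of rank 3 by p stood at 3.03 to 4.23 CPM with Rodeo, against 14.6 to 32.9 CPM in controls, a log2 difference of -2.72 with an SE of 0.313 (edgeR adjusted p = 0.00729). That of rank 6 stood at 9.13 to 15.9 CPM with Rodeo, against 32.2 to 73.8 CPM in controls, a log2 difference of -2.20 (edgeR adjusted p = 0.0189). Its identifier number is carried by 1 further contig, which had rank 10 by p and averaged 1.40 CPM with Rodeo against 9.84 CPM in controls. Its log2 difference of -2.81 with an SE of 0.444 did not pass (edgeR adjusted p = 0.0779). The contig of rank 7 stood at 2.76 to 4.69 CPM with Rodeo, against 13.4 to 16.8 CPM in controls, and that of rank 8 at 16.3 to 27.2 CPM with Rodeo, against 59.5 to 105.8 CPM in controls. All 4 had groups that did not overlap, with nearest libraries 2.02 to 3.45 times apart. The same library was not at the edge in every case. Control 2 was the lowest control for 4 of the 6 lower contigs and control 3 for the other 2, while the highest control was control 1 or control 4 in each. Among all 2050 identifier numbers with exactly 2 tested contigs, the pair's changes had the same sign in 49.4%. Over these pairs the 2 log2 fold changes had r = 0.226, and the levels of the 2 contigs over the 8 libraries had a median r of 0.225. These are descriptions over contigs that share libraries.

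**Figure D3:**
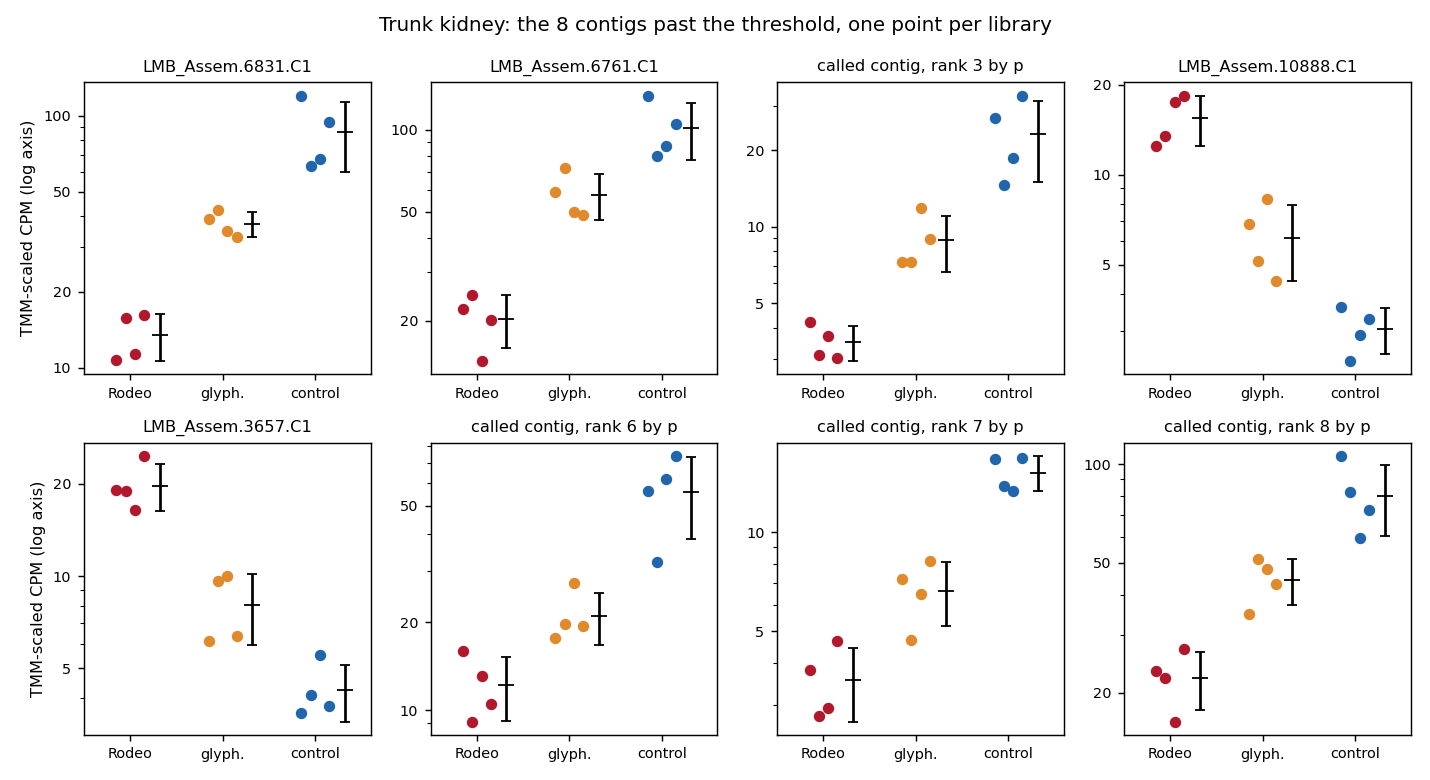
CPM on a log axis in each trunk kidney library for the 8 called contigs, with Rodeo in red, glyphosate in orange, control in blue, and the mean ± SD (n = 4) as a black bar beside each group. In each panel the Rodeo points lie apart from the control points and the 4 glyphosate points lie between them.

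The glyphosate libraries lay between Rodeo and control for each of these contigs, library by library. In LMB_Assem.6831.C1 they stood at 33 to 42.3 CPM, above the highest Rodeo library and below the lowest control. In LMB_Assem.6761.C1 they stood at 48.9 to 72.6 CPM, in LMB_Assem.10888.C1 at 4.40 to 8.27 CPM and in LMB_Assem.3657.C1 at 6.13 to 10.0 CPM. For all 8 called contigs, all 4 glyphosate libraries lay in the gap between the other groups. Of the 1907 contigs whose Rodeo and control values did not overlap (4.43% of those tested), 10 had all 4 glyphosate libraries in the gap and 1350 had none there. A wide gap leaves more room, and of the 17 uncalled contigs whose gap was over 2-fold at a mean log2 CPM of 1 or more, 1 had all 4 in it. The glyphosate libraries helped to set the spread in the fit that called the 8, so contigs with alike glyphosate values were favoured, and this count is a description. A running number in the names of the deposited count lists goes from 25 to 28 in Rodeo libraries, from 21 to 24 in glyphosate libraries and from 17 to 20 in controls. The labels do not say what it numbers, and an effect of that order and of treatment cannot be told apart.

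In head kidney the means of the named contigs were ordered the other way. On a scale common to all 24 libraries, LMB_Assem.6831.C1 averaged 49.8 ± 17.2 CPM in head Rodeo libraries, against 27.2 ± 11.7 CPM in head control libraries (SD, n = 4 each). LMB_Assem.3657.C1 averaged 6.94 ± 1.41 CPM in head Rodeo libraries, against 9.49 ± 5.23 CPM in head control libraries (SD, n = 4 each). LMB_Assem.6761.C1 averaged 39.3 ± 12.6 CPM in head Rodeo libraries, against 23.1 ± 3.11 CPM in head control libraries (SD, n = 4 each). For LMB_Assem.10888.C1 these were 3.30 ± 1.56 CPM and 6.99 ± 3.31 CPM (SD, n = 4 each). In head Rodeo libraries the contigs of ranks 3, 6, 7 and 8 averaged 3.52 ± 2.71, 6.56 ± 4.28, 0.332 ± 0.160 and 23.2 ± 8.51 CPM. In head control libraries they averaged 2.03 ± 2.14, 2.79 ± 1.62, 0.208 ± 0.187 and 16.7 ± 4.97 CPM (SD, n = 4 each). Because head and trunk labels disagreed in the matched libraries, no test between tissues was made here. Whether wrong labels in a tissue would give this order was not tested. The share of all tested contigs with opposite order in head and trunk kidney was not counted. The order is therefore not read as a trait of these contigs.

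The share of contigs with a small p-value depended on the fit. The unadjusted p was under 0.05 for 1998 contigs, 4.64% of those tested, of which 715 were higher (1.66%) and 1283 lower with Rodeo (2.98%). Where no contig differs, a share of about 0.05 is expected under that limit. The share was 6.85% of 40640 contigs in a fit of the 8 libraries alone and 5.72% of 43072 with DESeq2, and with single libraries left out it ran from 2.65% without Rodeo 3 to 5.60% without control 4. The lower side was larger although the median log2 fold change of all contigs was -0.03. Contigs share these libraries, so this split and those below are descriptions. For groups that do not overlap in either direction, the 70 splits of 8 libraries give a share of about 0.0286 where no contig differs. The observed share in either direction was larger, 1907 contigs or 4.43% of those tested. Of these, 888 were higher with Rodeo (2.06%) and 1019 lower (2.37%). The median gap of the 1907 was a factor of 1.11. A gap over 2-fold at a mean log2 CPM of 1 or more was seen in 25 of the 24209 tested contigs at that level. Of these, 4 were higher and 21 lower with Rodeo, and they included the 8 called ones.

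DESeq2, a second count test, called 62 contigs (0.144% of those tested), 19 higher (0.0441%) and 43 lower with Rodeo (0.0998%), including all 8. The 43 lower ones had a median log2 fold change of -2.27 and the 19 higher ones one of 2.10. In the higher ones the DESeq2 estimate reached 21.3 on the log2 scale. An estimate of that size is far beyond the range of levels here and is not read as a measured change. In 55 of the 62 the Rodeo and control libraries did not overlap, against 4.43% of all tested contigs. Every one had an unadjusted edgeR p under 0.05, with 0.0162 as the highest, against 4.64% of all tested contigs. The 62 were chosen by a test on the same counts, so neither is separate support. By identifier kind, 38 were LMB_Assem, 16 isotig and 8 contig sequences. All tested contigs comprised 19876, 16668 and 6528 of these kinds, and whether the kinds differ was not tested. Both tests, run on the same counts, put more contigs on the lower side, and they differed in how many passed.

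Contigs detected in all 4 libraries of one group and in none of the other were at the edge of detection. The 8 libraries held counts for 74555 contigs. In 23 of these all 4 Rodeo libraries held counts and all 4 controls were at 0. In 77 of the 74555 all 4 controls held counts and all 4 Rodeo libraries were at 0. Counts of these contigs summed over the 4 libraries had a median of 14 in both sets and reached at most 49 and 70. In 0 of these contigs did each of the 4 libraries hold at least 10 counts. Neither set thus shows a transcript switched on or off at a well measured level. Control libraries held 22312688 to 29858387 counts, against 22259411 to 27386031 in Rodeo libraries. At equal depth controls averaged 57256 contigs and Rodeo libraries 55509. Whether depth or the number of contigs detected accounts for the larger set in controls was not tested, so the 23 and 77 are a description.

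The contigs that took most reads did not move past the threshold. Of the 50 most abundant by CPM, without regard to length, 42 had a positive and 8 a negative log2 fold change. Among all 43072 tested contigs 20549 had a positive one. The median of the 50 was 0.17, below their median SE of 0.463. On the same counts the split was 42 to 8 with median-of-ratios scaling and 43 to 7 with upper quartile scaling. These contigs share libraries, so the split is a description. None of the 50 had an unadjusted p under 0.05. The most abundant contig stood at 3098, 2868, 3097 and 6573 CPM in Rodeo libraries and at 11671, 8707, 3425 and 2675 CPM in controls. Its log2 difference of -0.76 (SE 0.773; edgeR adjusted p = 0.977) was smaller than its SE. The libraries of the groups overlapped. The contig with the largest positive estimate among the 50 stood at 7.59, 4.74, 6299 and 8390 CPM with Rodeo, against 1.09, 0.981, 1589 and 30.6 CPM in controls. There 2 Rodeo libraries and 1 control stood at 1589 CPM or more and the others at 30.6 CPM or less, and its estimate of 3.18 had an SE of 2.59 (edgeR adjusted p = 0.972).

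Such contigs with a high and a low set of libraries made up a larger share of the large estimates than of all tested contigs. In trunk kidney 202 contigs had a gap of over 8-fold between 2 sets of libraries, and 2 of them split with all 4 controls high and all 4 Rodeo libraries low. In 0 did all 4 Rodeo libraries stand high and all 4 controls low. At a mean log2 CPM of 1 or more, 103 contigs changed by over 4-fold with p under 0.05 before adjustment, and 12 were of this type (11.7%), against 0.599% of all tested contigs at that level. The gap is part of their definition, so large estimates are built in. None of the 8 called contigs was of this type. A share of 11.7% could also give 0 of 8, and the fit favours contigs with a small spread within groups. This 0 is therefore a description.

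The precision sets what these libraries could show. The median SE of a log2 fold change was 0.788 for contigs below a mean log2 CPM of 0 and 0.295 for those between 4 and 6. The 95% interval lay wholly within 4-fold up or down for 71.6% of all contigs and for 95.3% of those between 4 and 6. It lay within 2-fold for 22.9% of all contigs and for 61.3% of those between 4 and 6. For most contigs of middle and high level a change of more than 4-fold is thus outside the interval, while a change of 2-fold often is not. The called contigs all had a mean log2 CPM between 2 and 6, 4 of them between 2 and 4 and 4 between 4 and 6.

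The count of called contigs depended on single libraries, in fits that tested 44523 to 45580 contigs. It was 7 without Rodeo 1, 2 without Rodeo 2, 4 without Rodeo 3 and 1 without Rodeo 4. It was 3 without control 1, 8 without control 2, 5 without control 3 and 3 without control 4. LMB_Assem.6831.C1 passed in each of these 8 fits (edgeR adjusted p at most 0.0452) and was the only one called without Rodeo 4. Over the same fits its log2 fold change ran from -2.80 to -2.47, that of LMB_Assem.6761.C1 from -2.43 to -2.16, that of LMB_Assem.10888.C1 from 2.24 to 2.43 and that of LMB_Assem.3657.C1 from 2.10 to 2.37. The sizes moved little, while adjusted p-values crossed the threshold. These contigs were chosen by their small p in the same libraries, so steady sizes are no separate support.

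**Figure D4:**
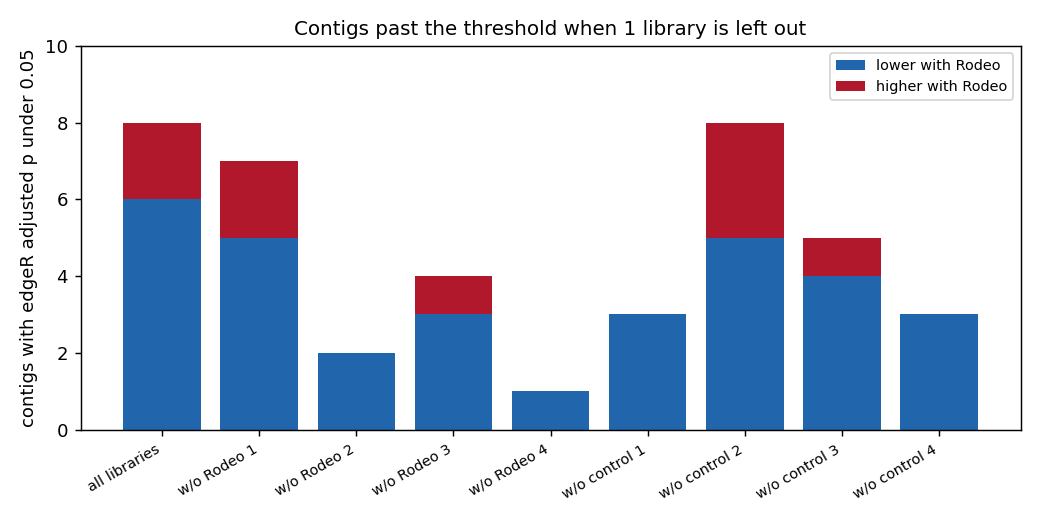
Number of contigs with an edgeR adjusted p under 0.05 with all libraries and with each of the 8 trunk kidney libraries left out in turn, split into lower with Rodeo (blue) and higher with Rodeo (red). The count is 8 with all libraries and runs from 1 without Rodeo 4 to 8 without control 2.

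Without the trunk libraries that matched a head library of another label, Rodeo 3 and control 4 remained with 2 glyphosate libraries, from which alone the spread was taken. That edgeR fit of 47988 contigs has 1 library in each arm, so no p-value or count of called contigs is given. The SEs below assume that Rodeo and control libraries vary like the glyphosate ones. The log2 difference was -3.06 (SE 1.0) for LMB_Assem.6831.C1 and -2.87 (SE 0.987) for LMB_Assem.6761.C1. It was 2.42 (SE 1.14) for LMB_Assem.10888.C1 and 2.14 (SE 1.11) for LMB_Assem.3657.C1. Rodeo 3 and control 4 helped to choose the contigs, so the directions are no separate support.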

How the data were processed

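The deposited files give raw read counts per contig, whole numbers that the authors had not normalized. The lists hold no contigs at 0, and such contigs were filled in as 0. The submitters' processing notes name edgeR, DESeq, SAMtools and cutadapt, without versions. How reads were aligned and counted, whether strand was used and where the contigs come from is not given in the sources used here. Contigs of one gene may share reads, which makes single values uncertain. Per the labels' protocols, poly(A) RNA from 250 ng of total RNA was made into libraries with a directional kit and 10 cycles of amplification. The labels name no molecular identifiers, so counting limits cover counting error only.

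The 12 trunk kidney libraries (Rodeo, glyphosate, control) entered one fit in edgeR 4.0.16 (R 4.3.3), with filterByExpr, TMM scaling, quasi-likelihood F test of Rodeo minus control, Benjamini-Hochberg adjustment over 43072 contigs, threshold 0.05. CPM are TMM-scaled. The SE is the log2 fold change divided by the square root of F. Log2 CPM used a prior count of 2. Named contigs are the first 2 by p in each direction among those at a mean log2 CPM of 1 or more. Values of single libraries were compared by exact permutation over 70 splits. Contigs with a high and a low set of libraries reached a log2 CPM of 1.5, with a gap over 3 on the log2 scale and at least 2 libraries on each side. Head and trunk libraries were matched where both were mutual best partners with at least 90% of the contigs alike. Tissue-enriched contigs had at least 4 CPM in the richer tissue. The libraries compared and the rules used were chosen with earlier results of these data known. Libraries of one group differed by a chi-square per degree of freedom of 33.0 to 107.6, far above sampling noise. For lack of gene names, marker genes and pathway lists were not tested.

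Replicate numbers come from the titles. Libraries of the same number did not deviate together (r from -0.267 to 0.0234). These r cannot show whether such libraries shared a tank, which the labels do not say.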

Additional observations from a re-analysis of the deposited data

Results flagged for a closer look

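The total of Rodeo library 2, 27386031 counts, lay apart from the other 3 Rodeo libraries, which held 22259411 to 22913919. The gap to the nearest of them was 0.872 of the range of the group, above the Dixon limit for 4 libraries. Of 20 groups of values checked in this way, this was the only one past the limit, and chance gives about 1 in 20. Rodeo 2 stood at -28.6 on the first component, within the range of its group, and without it the count of called contigs was 2.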

How the results depend on the processing

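All 8 called contigs kept their direction in the 18 other fits. These fits share the libraries that chose the contigs, so this is no separate support. The count of called contigs was 8 to 9 with other scalings, filters, robust fitting or the 8 libraries alone, of which 6 to 8 were among the 8, and it was 62 with DESeq2, 192 without the matched libraries, and 1 to 8 with single libraries left out. The cause of these differences was not tested, except that the 192 rest on 1 library in each arm, assumed to vary like the glyphosate libraries. With the replicate number as a block it was 8, of which 7 were shared. Same-numbered libraries correlated at -0.267 to 0.0234 in their deviations, against -0.142 to 0.295 in 12 other pairs. The labels give no basis for such a block. With the level of head-enriched contigs as a covariate, an alternative chosen after seeing the data, edgeR called 9, including all 8. LMB_Assem.10888.C1 lost the threshold in 7 of the 18 fits, LMB_Assem.3657.C1 in 5, LMB_Assem.6761.C1 in 2 and LMB_Assem.6831.C1 in 1. Of the other called contigs, that of rank 3 lost it in 3, those of ranks 6 and 7 in 8 each and that of rank 8 in 10. In the fit of the 8 libraries alone those of ranks 6 and 8 did not pass. Contigs whose groups do not overlap numbered 1171 of 24209 (4.84%) at a mean log2 CPM of at least 1, where fewer were counted. Without TMM factors they numbered 1422 of all 43072 (3.30%), 625 higher and 797 lower. The library measures had no p under 0.05 under any alternative. Their differences turned sign at the share in 100 contigs without control 3 (-0.65 points), at the head-enriched level without control 4 (0.013), and at the LMB_Assem share counted over detected contigs (0.867 points), without Rodeo 1 (0.011), without control 1 (0.0095) and without control 2 (0.185). Leaving out single libraries moved the LMB_Assem share from -0.51 to 0.18 points, the share in 100 contigs from -0.65 to 2.76 points, and the head-enriched level from -0.26 to 0.013. At low levels the depth limits what can be seen, since counts under 10 carry large counting error.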
